A study of Homo sapiens with 6 samples.

Results

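The human mitochondrial genome is a small circle of DNA, 16569 bases long in the hg38 reference, and it carries 37 genes. Those 37 genes, taken as all rows that the deposited count table places on chromosome MT out of 58735 genes in all, are described here in H1155 cells. They comprise 13 genes for protein subunits of the respiratory chain and the ATP synthase, 2 rRNA genes and 22 tRNA genes. Of the 37, 28 are annotated on the plus strand of the reference and 9 on the minus strand, namely MT-ND6 and 8 tRNA genes. All 37 have the same coordinates and strand in GENCODE release 44.

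H1155 is an established human neuroendocrine large cell lung cancer line that grows as floating clusters. Poly(A)-selected RNA from 3 unedited wild-type (WT) libraries and 3 libraries labelled GFI1-KO was sequenced, in cells kept in the same medium with serum and no drug. The knockout removed the promoter of GFI1, a zinc finger repressor first studied in blood cells, with CRISPR/Cas9 and a pair of guide RNAs, and GFP-positive single-cell clones were sorted. The study reports that after the deletion the cells attached to the substrate as single cells and proliferated less. Differences by label and by growth state therefore cannot be told apart here. The labels do not say whether the 3 libraries of a group came from separate cultures or clones, so p-values measure only the spread between these libraries.

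Both strands of the mitochondrial genome are transcribed as long RNAs by a dedicated polymerase, POLRMT. Most mRNAs and rRNAs in them are flanked by tRNAs, and enzymes that cut at the ends of the tRNAs release the messages between them. Most of the mRNAs then receive a short poly(A) tail, which for some of them completes the stop codon. The rRNAs carry only a few added A residues and the tRNAs receive CCA instead, so a poly(A) selection captures both poorly. Gene counts cannot tell a mature RNA from an uncut precursor.

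The total was 14882914 to 16102215 counts in the WT libraries and 17503794 to 17692882 in those labelled GFI1-KO. The edited gene did not fall: GFI1 had 153, 106 and 125 counts in WT and 174, 188 and 170 in the libraries labelled GFI1-KO, a log2 fold change of 0.31 (edgeR adjusted p = 0.0273), so its RNA does not check the labels, on which the directions given here rest. GFI1 protein, which the study examined by immunoblot, was not analysed here. The groups differed widely, with 72.4% of the 17514 tested genes past an adjusted p of 0.05. The neuroendocrine marker SYP, a synaptic vesicle protein, was present in all libraries, with 4182, 3770 and 4009 counts in WT and 10106, 10562 and 10241 in the other group. Of the 6 neuroendocrine markers listed, 3 were higher and 3 lower. SYP and NCAM1 (log2 fold change 1.12) were among the higher, NEUROD1 (-0.40) and INSM1 (-0.08) among the lower. Of 6 markers of blood and endothelial cells, PTPRC, CD3E, CD68, VWF and HBB had at most 5 counts in any library. The sixth, PECAM1, fell from 402 to 467 counts to 211 to 228, which is nearly all of the list's summed level of 402 to 468 counts against 213 to 235. The part of these differences in the results below was not tested.

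The mitochondrial genes are packed with almost no space between them, and only 1211 bases lie in no gene. Overlaps and incomplete stop codons matter for reading the counts, since the files do not say how a read on 2 genes was assigned. The sequences that follow are from the hg38 reference, read 5′ to 3′ on the plus strand. MT-ATP8 and MT-ATP6, subunits of the ATP synthase translated from a shared mRNA, overlap by 46 bases, which is 22.2% of MT-ATP8. MT-ND4L and MT-ND4, subunits of complex I that also share an mRNA, overlap by 7 bases. Capitals mark the bases that belong to both genes.
MT-ATP8/MT-ATP6, MT:8507-8592: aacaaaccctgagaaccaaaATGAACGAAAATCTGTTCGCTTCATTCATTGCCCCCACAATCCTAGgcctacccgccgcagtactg
MT-ND4L/MT-ND4, MT:10740-10786: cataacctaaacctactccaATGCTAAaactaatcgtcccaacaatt
The other overlaps were MT-ATP6 with MT-CO3 (1 base), MT-TI with MT-TQ (3 bases) and MT-TC with MT-TY (1 base), the MT-TI and MT-TQ pair being on opposite strands.

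For 6 of the 13 mRNAs the gene's length is no multiple of 3, because the DNA holds only part of the stop codon and the rest is added with the tail. Their last bases are shown because these messages need the tail that the selection also uses. Capitals mark the part of the stop codon that the gene encodes.
MT-ND1, MT:4246-4262: attccccctcaaaccTA
MT-ND2, MT:5496-5511: atactaataatcttaT
MT-CO3, MT:9975-9990: tattgatgagggtctT
MT-ND3, MT:10389-10404: ttagactgaaccgaaT
MT-ND4, MT:12122-12137: accgggttttcctctT
MT-CYB, MT:15872-15887: atactcaaatgggccT
Of these 6, MT-ND1, MT-CO3 and MT-ND3 rose in the libraries labelled GFI1-KO and MT-ND4 fell, each without overlap between groups. The messages with an incomplete stop codon thus did not move as 1 group. MT-CYB (log2 fold change 0.25) and MT-ND2 (-0.17) overlapped between groups.

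Among the tRNA genes, 3 that lie end to end between MT-ND4 and MT-ND5 and 2 that overlap by 1 base on the minus strand had the largest relative differences, together with MT-TG. They are printed with MT-TN and MT-TP, the tRNAs with the most counts, and MT-TL1, which did not pass the test. Each is given 5′ to 3′ on its own strand with the anticodon in capitals. MT-TN, MT-TC, MT-TY and MT-TP are on the minus strand.
MT-TH (histidine), MT:12138-12206: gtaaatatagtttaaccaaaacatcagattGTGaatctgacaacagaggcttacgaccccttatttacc
MT-TS2 (serine), MT:12207-12265: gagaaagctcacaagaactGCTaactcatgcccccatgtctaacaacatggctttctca
MT-TL2 (leucine), MT:12266-12336: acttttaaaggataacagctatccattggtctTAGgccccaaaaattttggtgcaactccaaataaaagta
MT-TC (cysteine), MT:5761-5826: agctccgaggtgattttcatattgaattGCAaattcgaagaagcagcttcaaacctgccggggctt
MT-TY (tyrosine), MT:5826-5891: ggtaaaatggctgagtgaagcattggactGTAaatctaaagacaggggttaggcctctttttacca
MT-TG (glycine), MT:9991-10058: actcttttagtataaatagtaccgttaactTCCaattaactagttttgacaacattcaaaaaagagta
MT-TN (asparagine), MT:5657-5729: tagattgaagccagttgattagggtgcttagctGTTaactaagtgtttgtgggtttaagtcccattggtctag
MT-TP (proline), MT:15956-16023: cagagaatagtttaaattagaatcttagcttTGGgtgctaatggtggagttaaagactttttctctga
MT-TL1 (leucine), MT:3230-3304: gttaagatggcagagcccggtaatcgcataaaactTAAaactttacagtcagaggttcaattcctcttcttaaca
The tRNA genes are 59 to 75 bases long, MT-TS2 being the shortest.

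The 37 genes together took a similar share of all counts in both groups. The share was 2.007%, 2.202% and 1.594% in WT and 2.048%, 2.041% and 2.013% in the libraries labelled GFI1-KO. The means were 1.934% ± 0.310 and 2.034% ± 0.0184 (SD, n = 3), the groups overlapped, and the exact two-sided permutation p was 0.7, where 3 libraries against 3 cannot go below 0.1. WT replicate 3 stood below the other WT libraries, and without it the difference changed sign, from 0.0999 to -0.0702 percentage points (exact permutation p = 0.8). In such bulk libraries, fewer cells with a given RNA and less of it per cell cannot be told apart.

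**Figure D1:**
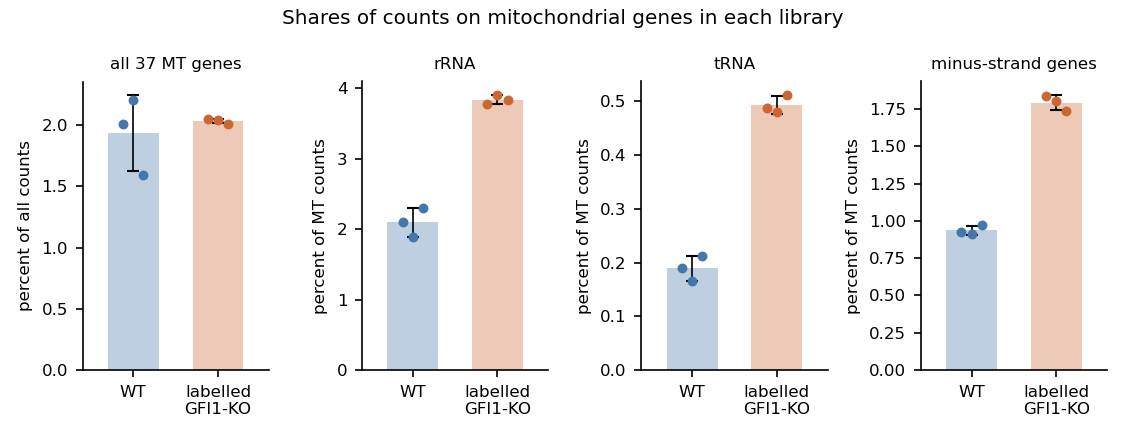
Percent of all counts on the 37 mitochondrial genes, and percent of the mitochondrial counts on rRNA, tRNA and minus-strand genes, for WT and for libraries labelled GFI1-KO. Points are libraries, bars are means and error bars are the SD (n = 3). The total overlaps between groups (1.594% to 2.202% against 2.013% to 2.048%) and the other 3 shares do not.

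In the fit across all genes, 25 of the 37 passed the filter on low counts, and the libraries labelled GFI1-KO were higher for 18 of them and lower for 5. Over all 17514 tested genes, 36.5% were higher and 35.9% lower. Of the 25, 5 tRNA genes (MT-TG, MT-TY, MT-TH, MT-TS2 and MT-TL2) reached the filter in fewer than 3 WT libraries and were tested through the other group. MT-TG reached it in 2 WT libraries. The remaining 4 reached it in none and so had to differ to be tested. Among the other 20 there were 13 increases, 5 decreases and 2 genes not past the test. Their median log2 fold change was 0.37 against 0.00 over all tested genes. For 14 of these 20 the groups were fully apart in normalized counts, as they were for 74.4% of all tested genes. By the test, 18 of these 20 were called against 72.4% of all genes tested. Since most genes differed, the results below concern directions and sizes rather than numbers of calls.

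**Figure D2:**
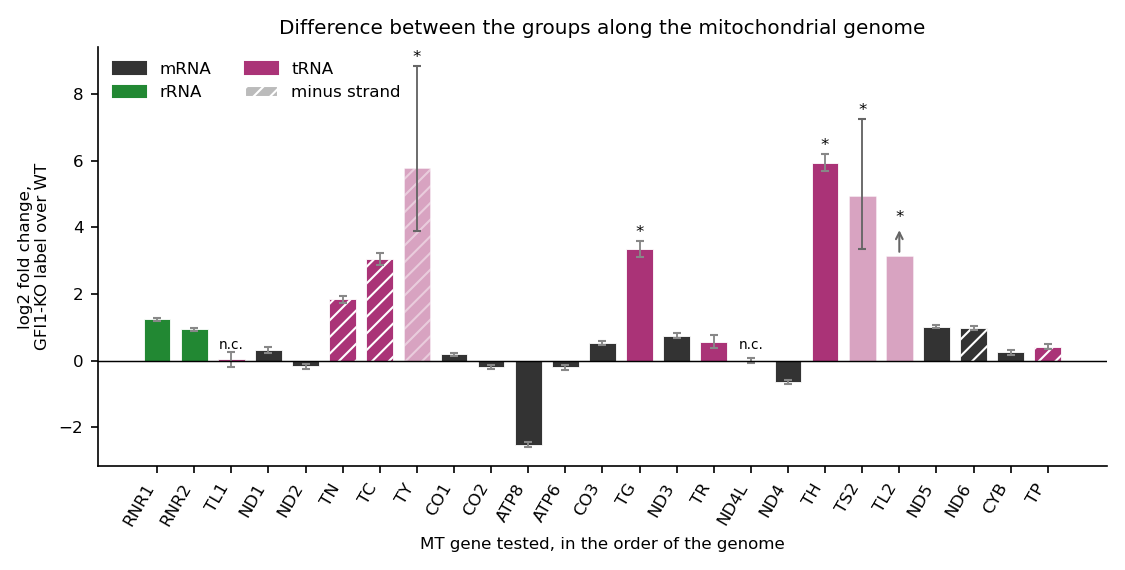
Log2 fold change (libraries labelled GFI1-KO over WT) of the 25 mitochondrial genes tested, in genome order, with the SE from edgeR. An asterisk marks genes that fewer than 3 WT libraries would have kept, n.c. those not past the test. Pale bars are genes with 3 counts or fewer over all WT libraries, drawn as the ratio of counts with its 95% counting interval or, for MT-TL2, as a lower bound with an arrow. MT-ATP8, at -2.52, is the lowest bar.

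Among the 13 mRNAs, 7 were higher, 5 lower and 1 not past the test, beside 36.5% higher and 35.9% lower over all genes tested. The median log2 fold change of the mRNAs was 0.19. Levels per length were compared as FPKM, which divides counts by gene length and by the library's total. MT-CO1, the catalytic core of complex IV, had the highest level in both groups, 3947 ± 512 FPKM in WT and 4437 ± 18.8 in libraries labelled GFI1-KO (SD, n = 3). It alone took 31.6% ± 1.07 and 33.6% ± 0.428 of mitochondrial counts.
The order below it changed between the groups. In WT, MT-CO2, MT-ND4 and MT-ND4L followed at 2740, 2660 and 2435 FPKM with overlapping ranges between neighbours. In the libraries labelled GFI1-KO, MT-ND4L and MT-CO2 came next at 2410 and 2378 FPKM, with overlapping ranges, and MT-CO3 (1906 FPKM) had moved above MT-ND4 (1683 FPKM). MT-ND6 held rank 12 of 15 in both, at 289.2 and 568.5 FPKM. MT-ATP8 went from rank 13, at 284.7 FPKM, to the lowest rank, at 49.15 FPKM, below both rRNAs. The WT ranges of MT-ND6 and MT-ATP8 overlapped. Below MT-ND4L and MT-CO2, no pair of neighbours overlapped in the libraries labelled GFI1-KO.

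**Figure D3:**
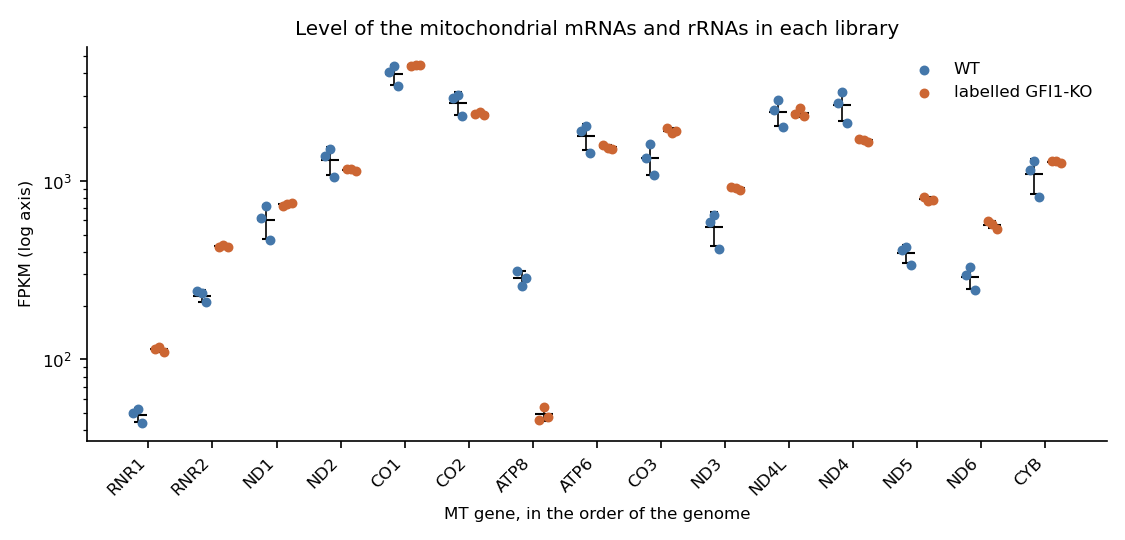
FPKM of the 13 mRNAs and 2 rRNAs in each library on a log axis, in genome order. Points are libraries, and the horizontal mark and bar give the mean and SD (n = 3). In the libraries labelled GFI1-KO, MT-ATP8 is the only mRNA below both rRNAs, its mean going from 284.7 to 49.15 FPKM.

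MT-ATP8, of the ATP synthase pair, showed the largest fall. It had 1044, 791 and 923 counts in WT and 166, 196 and 175 in the libraries labelled GFI1-KO. The lowest WT library stood far above the highest of the other group. The level was 5.73-fold lower, from 971.1 ± 96.7 to 169.5 ± 14.4 normalized counts (log2 fold change -2.52, SE 0.08, edgeR adjusted p = 2.3e-19).
MT-ATP6, on the same mRNA, had 20870, 20457 and 15362 counts in WT and 18972, 18330 and 18151 in the other group. These ranges overlapped, WT replicate 3 being the lowest, and the log2 fold change was -0.20 (SE 0.07, adjusted p = 0.011). The test of MT-ATP6 lost its call in 8 of 20 alternatives, 4 of which left out a library. Per base, MT-ATP8 stood at 16.46%, 12.72% and 19.77% of MT-ATP6 in WT and at 2.879%, 3.518% and 3.172% in the libraries labelled GFI1-KO (exact permutation p = 0.1, the smallest possible).

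Copies of mitochondrial DNA in the nuclear genome hold much of the same sequence, and a run of 7 of them lies on chromosome 1. Of 50-base words in MT-ATP6, 46.7% also occur on chromosome 1, against 8.23% in MT-ATP8. MTATP6P1 (chromosome 1, 633696 to 634376) differs from MT-ATP6 at 10 of 681 bases. It had 3927, 4101 and 3584 counts in WT and 1424, 1542 and 1317 in the libraries labelled GFI1-KO, a log2 fold change of -1.60 (SE 0.06, adjusted p = 6.4e-19). The groups were far apart, and MTATP6P1 fell from 20.7% ± 2.33 to 7.73% ± 0.609 of the counts of MT-ATP6. MTATP8P1, 97.6% identical to MT-ATP8, had 0 counts in all 6 libraries.
With copies and parents summed, MT-ATP6 had a log2 fold change of -0.36 and MT-ATP8 kept -2.52. MTND2P28 had 2201, 2419 and 1878 counts in WT and 1909, 2089 and 2096 in the other group (log2 fold change -0.26, adjusted p = 9.7e-04), a similar share of MT-ND2 in both, 10.3% ± 0.751 and 9.62% ± 0.529. MTCO1P12 had 171, 193 and 99 counts against 309, 304 and 225 (log2 fold change 0.69), at most 0.259% of MT-CO1. The other 4 copies on chromosome 1 had at most 2 counts in any library, and 322 of the 407 annotated nuclear copies had none. How reads that match both copy and parent were counted is not given in the sources used here.

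**Figure D4:**
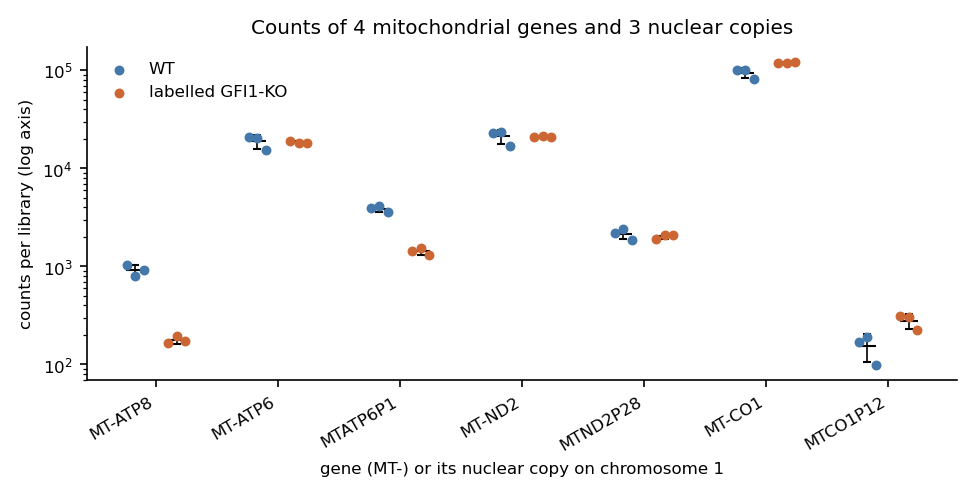
Counts per library on a log axis for MT-ATP8, MT-ATP6, MT-ND2 and MT-CO1 and for the 3 nuclear copies on chromosome 1 with a mean of at least 100 counts. Points are libraries, and marks and bars are the mean and SD (n = 3). MT-ATP8 and MTATP6P1 are separated between groups (791 to 1044 against 166 to 196, and 3584 to 4101 against 1317 to 1542 counts), while MT-ATP6 overlaps.

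The 7 complex I subunits moved in different directions. MT-ND4 had the largest fall, with 60712, 64148 and 45785 counts in WT and 41506, 40870 and 40018 in the libraries labelled GFI1-KO. The groups did not overlap (log2 fold change -0.64, SE 0.07, adjusted p = 8.4e-09). Its partner on the same mRNA, MT-ND4L, had 11859, 12452 and 9359 counts against 12377, 13324 and 12076, and its log2 fold change was 0.00 (SE 0.07, adjusted p = 0.983). Which WT library was left out set its direction: the log2 fold change was -0.13 without WT replicate 3 (adjusted p = 0.00174) and 0.11 without WT replicate 2 (adjusted p = 0.0496).
MT-ND4L per base was 91.8% ± 2.61 of MT-ND4 in WT and 143% ± 7.02 in the other group, with no overlap (exact permutation p = 0.1). Neither gene shares many words with the nuclear genome, none for MT-ND4L and 3.54% for MT-ND4.
MT-ND5, downstream of MT-ND4 past 3 tRNA genes, had 11980, 11510 and 9633 counts in WT and 25833, 24620 and 24864 in the libraries labelled GFI1-KO. Its level was 2.03-fold higher with the groups far apart (log2 fold change 1.02, SE 0.05, adjusted p = 1.2e-15). MT-ND5 per base went from 14.9% ± 1.18 of MT-ND4 to 46.8% ± 0.855.
MT-ND6, the only mRNA encoded on the minus strand and known to lack the usual tail, lies directly after the end of MT-ND5 on the opposite strand. It had 2495, 2558 and 2020 counts in WT and 5441, 5309 and 4999 in the other group (log2 fold change 0.99, SE 0.06, adjusted p = 4.0e-14). MT-ND6 per base was 73.7% ± 2.65 of MT-ND5 in WT and 72.2% ± 2.56 in the libraries labelled GFI1-KO, which overlapped (exact permutation p = 0.6). The strand setting of the counting is not given in the sources used here, so reads of MT-ND6 and of RNA antisense to it cannot be told apart.

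The remaining complex I genes are MT-ND3, MT-ND1 and MT-ND2. MT-ND3 had 3280, 3297 and 2249 counts in WT and 5572, 5579 and 5420 in the libraries labelled GFI1-KO (log2 fold change 0.75, SE 0.08, adjusted p = 3.8e-09), with no overlap. MT-ND1 had 9506, 10246 and 6973 against 12162, 12533 and 12666 (0.32, adjusted p = 7.5e-04). MT-ND2 had 23155, 23385 and 17066 against 21153, 21333 and 20878, which overlapped (-0.17, adjusted p = 0.031). MT-ND2 lost its call or its sign in 11 of 20 alternatives. As a share of mitochondrial counts, complex I fell from 38.1% ± 0.864 to 34.3% ± 0.340 without overlap (exact permutation p = 0.1), and MT-ND4 alone fell from 18.9% ± 0.643 to 11.4% ± 0.172.

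Of the complex IV subunits, MT-CO3 rose and MT-CO1 rose slightly while MT-CO2 fell. MT-CO3 had 16932, 18682 and 13238 counts in WT and 26975, 25510 and 26373 in the libraries labelled GFI1-KO (log2 fold change 0.53, SE 0.07, adjusted p = 3.5e-07). MT-CO1 had 100678, 100885 and 82022 counts against 119192, 120486 and 121460 (0.19, SE 0.05, adjusted p = 0.00229). MT-CO2 had 32163, 30595 and 24615 counts against 28186, 29334 and 28318, which overlapped (-0.19, SE 0.06, adjusted p = 0.00461).
MT-CO3 follows MT-ATP6 on the genome with no tRNA between them, and its level per base was 74.9% ± 4.43 of MT-ATP6 in WT and 123.5% ± 2.66 in the other group. Both groups of libraries were apart on this ratio (exact permutation p = 0.1). MT-CYB, the complex III subunit, had 21078, 21950 and 14607 counts in WT and 25656, 25754 and 25357 in the libraries labelled GFI1-KO (0.25, SE 0.08, adjusted p = 0.00921). The normalized counts of MT-CYB overlapped. For MT-CO1, MT-CO2, MT-CYB and MT-ND1, WT replicate 3 was the lowest library. The calls of these 4 genes were lost in 2 or 3 of 20 alternatives, DESeq2 among them.

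Both rRNAs of the mitochondrial ribosome were higher. MT-RNR1, the small-subunit rRNA, had 772, 747 and 661 counts in WT and 1906, 1976 and 1865 in the libraries labelled GFI1-KO (log2 fold change 1.24, SE 0.05, adjusted p = 6.9e-17). MT-RNR2, the large-subunit rRNA, had 6034, 5433 and 5102 counts against 11629, 12030 and 11771 (0.94, SE 0.04, adjusted p = 4.1e-17). Neither overlapped between groups.
Together they took 2.106%, 1.886% and 2.304% of mitochondrial counts in WT and 3.776%, 3.902% and 3.828% in the other group (exact permutation p = 0.1). MT-RNR1 stood below MT-RNR2 per base in all libraries, at 21.5% ± 0.836 of it in WT and 26.5% ± 0.533 in the libraries labelled GFI1-KO. Per base, MT-RNR2 was 38.8% ± 6.18 and 58.2% ± 1.02 of MT-ND1, the mRNA that follows it. In cells without poly(A) selection rRNA is far more abundant than mRNA, so these levels describe what passed the selection.

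Other RNAs that lack poly(A) tails did not all move the same way. RN7SL2, a copy of the signal recognition particle RNA, went from 22, 10 and 28 counts to 3245, 3607 and 2854 (log2 fold change 7.17, adjusted p = 5.9e-25), and RN7SK, RN7SL1, RMRP and RPPH1 had 0 counts throughout. The histone genes named HIST1 to HIST3, most of which make RNA without a tail, rose from 0.00647% to 0.0264% of all counts. The snRNAs, snoRNAs and scaRNAs fell from 0.0107% to 0.00805%. Their part in the mitochondrial rRNA and tRNA results was not tested.

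The tRNA genes took 616, 540 and 530 counts in the WT libraries and 1750, 1721 and 1822 in those labelled GFI1-KO. That is 0.1906%, 0.1648% and 0.2119% of mitochondrial counts against 0.4882%, 0.4795% and 0.5115%, a mean 2.61 times as high with no overlap (exact permutation p = 0.1). The test covered 10 of the 22 genes and called 9 of them higher, against 36.5% of all genes tested. Of these 9 tRNA genes, 5 are the ones that the filter let in through the group where they are high. Most WT tRNA counts, 55.2% ± 2.59, fell on MT-TP alone. In the libraries labelled GFI1-KO, MT-TP held 26.4% ± 0.225, MT-TN 23.3% ± 0.822, MT-TH 14.7% ± 1.44 and MT-TC 13.5% ± 1.69.

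**Figure D5:**
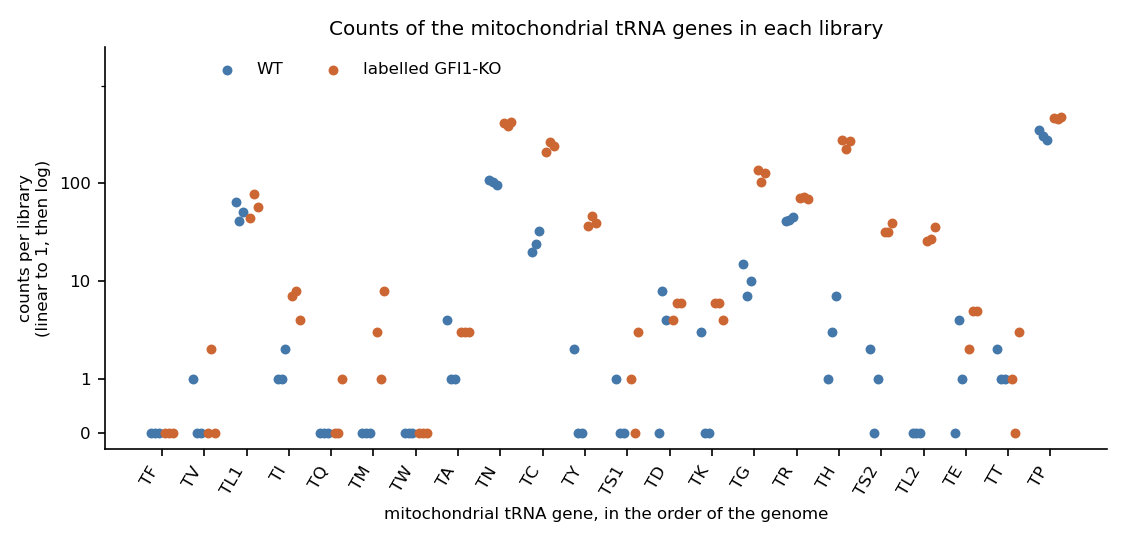
Counts of the 22 mitochondrial tRNA genes in each library, in genome order, on an axis that is linear up to 1 count and logarithmic above. Points are libraries, not scaled for depth. MT-TH rises from at most 7 counts in WT to 227 to 281, and MT-TL2 from 0 to 26 to 36, while MT-TL1 overlaps at 41 to 64 against 44 to 78.

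The run MT-TH, MT-TS2 and MT-TL2, printed above, has no base between its members or between them and MT-ND4 or MT-ND5. MT-TH had 1, 3 and 7 counts in WT and 281, 227 and 270 in the libraries labelled GFI1-KO (log2 fold change 5.94, SE 0.26). As it reached the filter on low counts in no WT library, its p-value is not given. With so few WT counts the log2 fold change ran from 5.47 without WT replicate 1 to 6.76 without WT replicate 3. MT-TS2 had 2, 0 and 1 counts against 32, 32 and 39, a ratio of 30.7 (95% counting interval 10.2 to 151.3). MT-TL2 had 0 counts in every WT library and 26, 27 and 36 in the other group, at least 8.83-fold higher against a floor of 3 counts per WT library.
All 3 were near 0 in WT and above 25 counts in the other group. Intervals and floors cover counting error only.
Per base, MT-TH went from 0.144% ± 0.143 of MT-ND4 to 12.7% ± 1.39, and from 0.937% ± 0.873 of MT-ND5 to 27.1% ± 2.50. MT-TS2 and MT-TL2 stood at 4.20% ± 0.539 and 3.02% ± 0.595 of MT-ND5 in the libraries labelled GFI1-KO, lower than MT-TH although they lie between it and MT-ND5. MT-TS2 and MT-TL2 share no 50-base word with the nuclear genome, and MT-TH shares 10% of its words.

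On the minus strand, MT-TN, MT-TC and MT-TY lie in a cluster with MT-TA between MT-ND2 and MT-CO1. MT-TN had 108, 103 and 97 counts in WT and 420, 385 and 426 in the libraries labelled GFI1-KO (log2 fold change 1.84, SE 0.10, adjusted p = 5.2e-15). MT-TC had 20, 24 and 33 counts against 210, 264 and 242 (3.05, SE 0.17, adjusted p = 1.1e-14). MT-TY had 2, 0 and 0 counts against 37, 47 and 39, a ratio of 55 (95% counting interval 14.9 to 459.3).
MT-TN and MT-TC were apart between groups in normalized counts, as were 74.4% of all genes tested. MT-TY reached the filter on low counts in no WT library and so had to differ to be tested. MT-TA, the fourth member of the cluster, had 4, 1 and 1 counts in WT and 3, 3 and 3 in the other group. All 50-base words of MT-TN and MT-TA, 64.7% of those of MT-TC and 11.8% of those of MT-TY occur on chromosome 1, so for the first 2 a read of that length matches both places.
MT-TP, the last gene before the control region, had 351, 305 and 277 counts in WT and 466, 454 and 477 in the libraries labelled GFI1-KO (0.42, SE 0.08, adjusted p = 3.9e-05), without overlap. Relative to MT-ND6, MT-TC rose from 8.95% ± 3.55 to 36.3% ± 4.84 per base, MT-TN rose from 31.5% ± 2.81 to 56.3% ± 4.62, and MT-TP fell from 102.2% ± 8.88 to 68.6% ± 4.39 (each exact permutation p = 0.1).

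Genes on the minus strand as a whole took 0.9224%, 0.9140% and 0.9710% of mitochondrial counts in WT and 1.836%, 1.802% and 1.739% in the libraries labelled GFI1-KO (exact permutation p = 0.1). All 5 minus-strand genes tested were higher, against 36.5% of all genes tested. MT-TY was among the 5 only through the filter. Of the 20 plus-strand genes tested, 13 were higher and 5 lower, and 4 of the 13 were let in by the filter. As both MT-RNR genes, MT-ND5 and MT-ND3 on the plus strand also rose, higher counts were found for genes annotated on either strand. With the strand setting of the counting not given, the strand of the RNA itself cannot be told.

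On the plus strand, MT-TG and MT-TR flank MT-ND3. MT-TG had 15, 7 and 10 counts in WT and 136, 104 and 129 in the libraries labelled GFI1-KO (log2 fold change 3.35, SE 0.24). As it reached the filter on low counts in only 2 WT libraries, its p-value is not given. MT-TR had 41, 42 and 45 against 71, 72 and 70 (log2 fold change 0.57, SE 0.19, adjusted p = 0.00937).
Against MT-ND3 per base, MT-TG rose from 1.89% ± 0.702 to 11.3% ± 1.61, while MT-TR was at 8.03% ± 2.27 and 6.84% ± 0.0517, which overlapped (exact permutation p = 1). MT-TL1, between MT-RNR2 and MT-ND1, had 64, 41 and 51 counts against 44, 78 and 57 and was not past the test (0.04, SE 0.22, adjusted p = 0.878). Relative to MT-RNR2 per base, MT-TL1 fell from 19.5% ± 3.37 to 10.5% ± 2.83 without overlap. The SE of MT-TL1 on the log2 scale was 0.22 against 0.08 for MT-TP, which had more counts.

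The other 12 tRNA genes stayed under the filter. MT-TF and MT-TW had 0 counts in all libraries, which with a floor of 3 counts per library leaves their level undetermined rather than absent. MT-TI had 1, 1 and 2 counts in WT and 7, 8 and 4 in the libraries labelled GFI1-KO, MT-TM had 0, 0 and 0 against 3, 1 and 8, and MT-TK had 3, 0 and 0 against 6, 6 and 4. These 3 did not overlap between groups, beside 74.4% of all genes tested. Their counts lie close to the floor of 3, so no difference is read from this separation. MT-TV, MT-TQ, MT-TA, MT-TS1, MT-TD, MT-TE and MT-TT had at most 8 counts and overlapped. With no filter on low counts, MT-TM was the only gene of the 12 past the test (edgeR adjusted p = 0.0107, and 0.045 by DESeq2), and MT-TI had an adjusted p of 0.0581 and MT-TK of 0.0746. For the others a difference was not detectable at this depth.

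GC content, length and the share of words found in the nuclear genome were also set beside the differences. Across the genes tested, the log2 fold change rose with GC content (Spearman's rho = 0.574 across genes, which are not independent). Across the 25 mitochondrial genes rho was -0.259 with GC content, -0.48 with length and -0.105 with the share of 50-base words found in the nuclear genome. These are given as descriptions over 25 genes that share 1 genome and the same 6 libraries. Of the 25, 5 short tRNA genes were let in by the filter through the group where they are high. The filter thus put short genes with large increases into these values, so no relation to length is read from them. The part of the GC trend in the mitochondrial differences was not tested. With GC content and length corrected in the fit, 60.5% of all genes tested were called, 32.8% higher and 27.6% lower. The mitochondrial genes were then 18 higher and 3 lower, MT-ND4, MT-ATP8 and MT-CO2 being the lower ones.

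The nuclear genome encodes the proteins that copy, transcribe, cut and degrade mitochondrial RNA. Of a list of 45 such genes, all tested, 12 rose and 20 fell in the libraries labelled GFI1-KO, the median log2 fold change being -0.08. These 32 are 71.1% of the list, close to the 72.4% of all genes tested. With GC content and length corrected, 12 were higher and 14 lower, against 32.8% and 27.6% of all genes tested. Of the 12 and 14, 5 and 8 had the same call without the correction. Among 14 genes of polyadenylation, stability and decay, 1 was higher and 10 lower (median -0.55), against 36.5% and 35.9% of all genes tested. After the correction 3 of the 14 were higher and 8 lower (median -0.15).
LRPPRC and SLIRP form a complex that binds and stabilizes mitochondrial mRNAs. LRPPRC had 3585, 3096 and 3567 counts in WT and 2265, 1936 and 2087 in the libraries labelled GFI1-KO (log2 fold change -0.86, adjusted p = 4.1e-15, and -0.29 after the correction). SLIRP had 1491, 1473 and 1414 counts against 752, 793 and 766 (-1.08, adjusted p = 3.1e-16, and -0.70 after it). Neither overlapped between groups. FASTK, an RNA-binding protein needed for MT-ND6 mRNA, had 667, 601 and 607 counts against 1334, 1388 and 1395 (0.97, adjusted p = 4.2e-15, and 0.38 after it).

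Of 12 genes of replication and transcription, 4 were higher and 5 lower (75% called, against 72.4% of all genes tested). With GC content and length corrected, 4 were higher and 2 lower, against 32.8% and 27.6% of all genes tested. Of the 4 and 2, 2 and 1 had the same call without the correction. POLRMT, the polymerase, had 1080, 946 and 1018 counts in WT and 1498, 1527 and 1526 in the libraries labelled GFI1-KO (log2 fold change 0.42, adjusted p = 5.3e-09), and the sign turned with GC content and length corrected (-0.30, adjusted p = 7.0e-06). TFAM, which packages the mitochondrial genome and starts its transcription, had 2549, 2453 and 2750 counts against 1891, 1878 and 1801 (-0.64, adjusted p = 2.5e-13), and its call was lost with the correction (-0.01, adjusted p = 0.838).
The direction of POLRMT and the call of TFAM thus depended on that correction. TOP1MT, a topoisomerase of mitochondrial DNA, had 349, 346 and 339 counts against 804, 863 and 861 (1.13, adjusted p = 1.8e-14, and 0.72 after the correction). Of 13 genes of RNA processing and modification, 5 were higher and 3 lower (61.5% called). After the correction 5 were higher and 4 lower, and of these 2 and 0 had the same call without it. MRM1, which methylates the large-subunit rRNA, had 101, 99 and 86 counts against 273, 281 and 243 (1.32, adjusted p = 1.1e-10, and 0.60 after the correction). Of 6 regulators of biogenesis, 2 were higher and 2 lower (66.7% called), and none was called after the correction. PPARGC1A, a coactivator, had 16, 18 and 17 counts against 8, 10 and 8 (-1.12, adjusted p = 0.00936, and -0.65 with adjusted p = 0.133 after the correction). Of 82 tested nuclear genes of the respiratory chain and ATP synthase, whose products assemble with the mitochondrial ones, 54 rose and 15 fell, against 36.5% and 35.9% of all genes tested, the median log2 fold change being 0.32. After the correction 52 were higher and 10 lower, against 32.8% and 27.6% of all genes tested. Of the 52 and 10, 44 and 5 had the same call without it.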

How the data were processed

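RNA was extracted with TRIzol, selected with poly-T beads and sequenced on an Illumina NovaSeq instrument. The study's methods name Hisat2 v2.0.5, GRCh38 and featureCounts v1.5.0-p3, whereas the submitters' processing notes name Bowtie2, HTSeq and hg38. The strand, overlap and multiple-mapping settings are not given in the sources used here. The authors deposited raw read counts per gene for the 6 libraries, with gene length and position beside them, and no normalization.

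Counts of all genes were fitted with edgeR 4.0.16 (R 4.3.3, TMM factors, filterByExpr at 0.5951 CPM in at least 3 libraries, quasi-likelihood F test, Benjamini-Hochberg over 17514 genes, adjusted p at most 0.05), and the mitochondrial rows were read from that fit. Normalized counts are counts scaled to the mean effective library size. FPKM was computed from the deposited counts and lengths. Shares were compared with the exact two-sided permutation test. Alternatives were DESeq2 1.42.0, limma-voom (limma 3.58.1), other scalings, filters and thresholds, a replicate block, a spline correction for GC content and length (5 degrees of freedom), and leaving out each library. The planned fits on all 6 libraries were tested on simulated data. Those that left out a library or were chosen after seeing the data were not. Replicates differed by more than sampling noise (mean chi-square per gene 1.875 to 5.099, against 1 for pure sampling).

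The members and gene lists were chosen with earlier results of these data known. All 37 mitochondrial genes are given values. Of the nuclear genes of mtDNA expression, the 3 largest increases and the 3 largest decreases past the test are named, with TFAM, POLRMT and LRPPRC. Nuclear copies are named at a mean of 100 counts or more. A marker of the cell type check is not reported here. Sequences were read from the hg38 reference.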

Additional observations from a re-analysis of the deposited data

How the results depend on the processing

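Of the 25 mitochondrial genes tested, 15 kept direction and call in all alternatives run. Over all genes and alternatives, 452 values kept both, 30 lost the call, 1 gained it with its sign kept and 12 changed sign. The sign changes were confined to MT-TL1, MT-ND4L and MT-ND2. MT-ND4L without WT replicate 3 both changed sign and gained the call (edgeR adjusted p = 0.00174). The count of mitochondrial genes changed, 23, was 15 with the mitochondrial counts as library size (an alternative chosen after seeing the data, which moved the median of all genes to -0.11). The count of lower genes, 5, was 2 with DESeq2, 3 with the GC and length correction, 3 at an adjusted p of at most 0.01, 2 with the mitochondrial counts as library size, and 2 to 6 when 1 library was left out (2 without WT replicate 1, 6 without WT replicate 3). The cause was not tested. The difference in mitochondrial share was -0.0702 to 0.234 percentage points when 1 library was left out. MT-TL1 was -0.00 with upper-quartile factors, -0.07 with the mitochondrial counts as library size and -0.20 to 0.22 when 1 library was left out (-0.08 without WT replicate 2, -0.20 without GFI1-KO replicate 2). MT-ND4L was -0.00 with median-of-ratios factors or at least 10 counts in every sample, -0.04 with upper-quartile factors, -0.01 with library size alone, -0.09 with the mitochondrial counts as library size, and -0.13 to 0.11 when 1 library was left out (-0.13 without WT replicate 3, -0.04 without GFI1-KO replicate 2). MT-ND2 was 0.02 with the GC and length correction and replicate block. Summing counts with the copies on chromosome 1 was also chosen after seeing the data and left 18 higher and 5 lower. Libraries that share a replicate number did not deviate together (r from -0.00362 to 0.0238 over 11867 genes), and not every library correlated best with its own number. With the replicate number as a block, 18 mitochondrial genes were higher and 5 lower, and 12573 genes were called in all against 12680. DESeq2 called 11446 genes and the GC and length correction 10591. Depth limits the 12 untested tRNA genes, with at most 8 counts a library.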
